A study of Mus musculus with 16 samples.

Results

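The renin-angiotensin genes Ren1, Agt, Ace, Agtr1a, Atp6ap2 and Mme were followed in the kidneys of 16 mice, 4 of each of 4 genotypes. They were chosen by name, as genes of the pathway, and each was found through the transcript that the array design assigns to its probes. They are 6 of the 22911 genes that the array design names, and they had 7 of its 56605 probes, 1 for each gene except Mme, which had 2. All 7 probes were well above background, by the scanner software's own flag, on all 16 arrays. A probe is described here by its name and its transcript, since probe sequences were not used.

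RNA of whole kidney was hybridised to Agilent single-color arrays, and the mice were 6 months old per the labels. The wild-type mice were of the C57BL/6 strain. The Sting-ko mice were C57BL/6 as well and carried the Goldenticket allele (Sting gt/gt), a point mutation that abolishes the STING protein. The Fcgr2b-ko mice, the lupus model, lacked the inhibitory Fc gamma receptor IIb and were labelled 129/C57BL/6. The Fcgr2b-ko_Sting-ko mice, called double-deficient below, carried both alterations on the same mixed background. Strain label and Fcgr2b genotype ran together, so that an effect of the one cannot be told apart from an effect of the other. The study's legends name the kidneys of the lupus group in some panels as heterozygous for the Sting allele, which the labels do not state. The sex of the mice was not given in the labels. The kidney is a mixture of cells, and in bulk RNA fewer cells of a type and less RNA per cell cannot be told apart.

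Renin, the product of Ren1, is an aspartyl protease that juxtaglomerular cells of the afferent arteriole release when renal perfusion or salt delivery falls. It cleaves angiotensinogen, the product of Agt, and angiotensin-converting enzyme (Ace) turns the resulting peptide into angiotensin II, which acts on the receptor Agtr1a to constrict vessels and retain sodium. Atp6ap2 encodes the (pro)renin receptor, which is also an accessory subunit of the vacuolar proton pump, and Mme encodes neprilysin, a membrane peptidase of the proximal tubule that degrades angiotensin and natriuretic peptides. C57BL/6 mice carry a single renin gene, whereas 129 strains carry a duplicated renin locus with Ren1 and Ren2 side by side.

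The sequence upstream of the transcription start is shown for 4 members, because these genes ranged from the most to the least variable of the pathway among the mice. Each run is the 250 bases before the start in RefSeq (GRCm38.p6), read 5′ to 3′ on the strand of the gene, with every TATAA on either strand in capitals.
Ren1, chr1:133350424-133350673, plus strand: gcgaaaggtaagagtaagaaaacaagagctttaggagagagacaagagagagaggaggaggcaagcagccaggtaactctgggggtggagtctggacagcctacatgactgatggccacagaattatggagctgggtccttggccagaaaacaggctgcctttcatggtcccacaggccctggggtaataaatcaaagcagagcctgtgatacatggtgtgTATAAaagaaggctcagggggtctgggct
Agt, chr8:124569707-124569956, minus strand: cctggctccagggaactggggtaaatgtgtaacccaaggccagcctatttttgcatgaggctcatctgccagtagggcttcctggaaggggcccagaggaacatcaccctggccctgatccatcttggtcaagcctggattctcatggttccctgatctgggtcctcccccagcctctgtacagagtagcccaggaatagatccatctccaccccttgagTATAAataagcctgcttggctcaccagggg
Ace, chr11:105967698-105967947, plus strand, the more upstream of the starts listed: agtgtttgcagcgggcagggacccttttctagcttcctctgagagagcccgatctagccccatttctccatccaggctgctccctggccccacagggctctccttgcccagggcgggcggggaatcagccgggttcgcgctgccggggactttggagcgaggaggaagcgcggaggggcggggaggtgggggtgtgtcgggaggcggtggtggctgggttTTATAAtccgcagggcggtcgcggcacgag
Atp6ap2, chrX:12587509-12587758, plus strand: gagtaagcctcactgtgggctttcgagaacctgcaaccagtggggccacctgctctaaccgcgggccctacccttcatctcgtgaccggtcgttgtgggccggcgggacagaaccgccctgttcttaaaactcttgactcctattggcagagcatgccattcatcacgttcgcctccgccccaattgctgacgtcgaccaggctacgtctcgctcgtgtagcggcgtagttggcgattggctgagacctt

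On the strand of the gene, TATAA began 29 bases upstream of the start in Ren1, 30 in Agt and 29 in Ace, where a match on the other strand overlapped it. No TATAA lay in the window of Atp6ap2. Of the 32851 RefSeq windows of this length, 22.8% held the motif on either strand, and 4.93% held it on the strand of the gene within 50 bases of the start. The windows of Ren1 and Agt held 1 and 0 CG dinucleotides, against a median of 6 over all windows, and those of Ace and Atp6ap2 held 19 and 20. Windows were matched for 5 of the 6 members; Agtr1a had no entry. A motif match is a description of the letters, not evidence of a bound site.

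Among the 6 members, none differed between genotypes past the threshold. The values below are the log2 processed signal minus the 75th percentile of the same array, so that 0 is the level of that percentile, and a value compares mice on 1 probe and never 1 probe with another. A difference was called at a limma adjusted p under 0.05 over all 35628 probes tested and at least 2-fold. In the comparison of the 8 Fcgr2b-deficient with the 8 Fcgr2b-intact mice, 0 of 6 members were called, against 0.0674% of all probes. In Fcgr2b-ko against wild-type mice, 0 of 6 were called, against 0.0505% of probes. The remaining comparisons set the double-deficient mice against each other genotype and Sting-ko against wild-type mice, and the last was the interaction between Fcgr2b and Sting. In these 5 comparisons 0 of 6 members and 0% of probes were called. No member had an unadjusted limma p under 0.05 in any of the 7 comparisons. The share of probes that did was 1.66% in the pooled comparison, 3.35% in Fcgr2b-ko and 3.76% in Sting-ko against wild-type, 0.424%, 1.81% and 3.05% in double-deficient against wild-type, Fcgr2b-ko and Sting-ko mice, and 6.27% for the interaction. In the 6 comparisons of groups the values of every member overlapped. The probes without overlap were 0.0702% of all in the pooled comparison, 1.24% in Fcgr2b-ko and 2.04% in Sting-ko against wild-type, and 0.547%, 1.02% and 2.13% in double-deficient against wild-type, Fcgr2b-ko and Sting-ko mice.

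**Figure D1:**
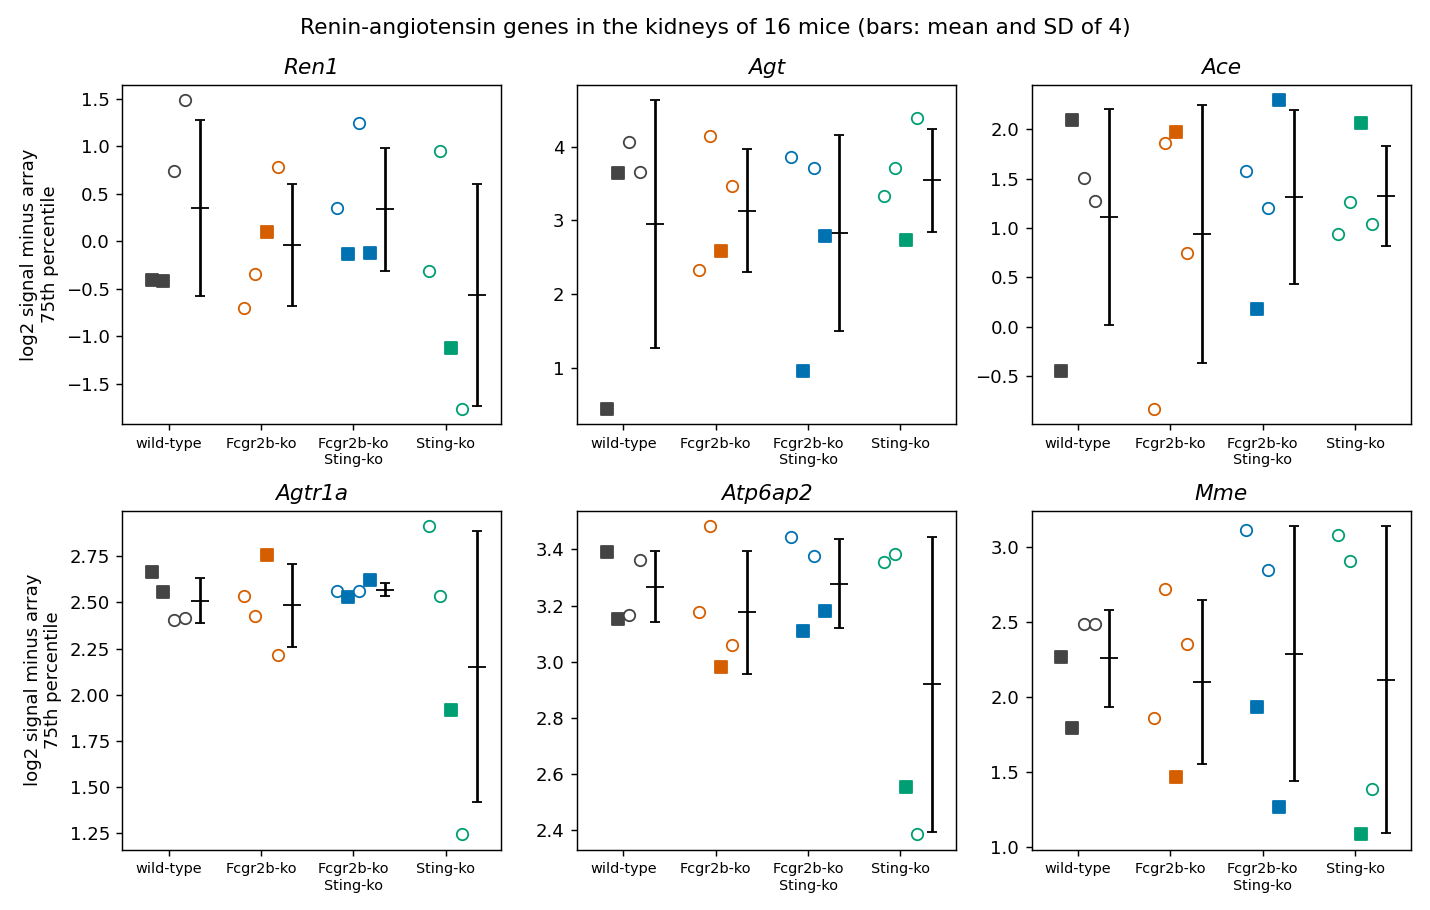
Log2 signal minus the array's 75th percentile (y axis) of the 6 members in each mouse, by genotype (x axis); filled squares mark the 6 mice with Y-linked transcripts well above background, open circles the other 10, and bars give the mean and SD of 4 mice. The genotypes overlap in every panel, and Agtr1a and Atp6ap2 are narrow in all groups but Sting-ko, where replicates 3 and 4 lie lowest.

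Renin mRNA, the rate-limiting enzyme of the cascade, was measured by the Ren1 probe A_55_P1966304 (NM_031192). In the wild-type mice, replicates 1 to 4, the log2 signal was -0.41, -0.42, 0.74 and 1.48, and in the Fcgr2b-ko mice -0.71, -0.34, 0.10 and 0.78. In the double-deficient mice it was 0.35, -0.14, 1.25 and -0.13, and in the Sting-ko mice -0.31, 0.95, -1.13 and -1.76. High and low mice thus occurred in every genotype, and the 2 lowest of the 16 were Sting-ko replicates 3 and 4. The means stood in the order wild-type (0.35 ± 0.93, SD, n = 4), double-deficient (0.33 ± 0.65), Fcgr2b-ko (-0.04 ± 0.64) and Sting-ko (-0.56 ± 1.17), and no neighbours in this order differed beyond their spread. The Fcgr2b-deficient mice were higher than the Fcgr2b-intact mice by 0.25 on the log2 scale (SE 0.41, 95% interval -0.61 to 1.12, limma adjusted p = 1). Sting-ko mice were 0.91 below wild-type (log2 change -0.91, SE 0.57, 95% interval -2.13 to 0.31, limma adjusted p = 0.732), which was the largest change of a member between genotypes. Without Sting-ko replicates 3 and 4 this change was -0.03, and the pooled change was -0.19 in place of 0.25. The arrays lay on 2 slides, and within the slides the difference between Sting-ko and wild-type ran in opposite directions, 0.73 on slide 1 and -2.56 on slide 2, with 2 mice a group.

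A probe assigned to Ren2, the second renin gene of duplicated strains, was well above background on all 16 arrays, including the 8 of mice labelled C57BL/6. Its log2 signal was 3.94, 3.93, 5.17 and 5.39 in the wild-type mice and 4.31, 4.09, 4.08 and 4.80 in the Fcgr2b-ko mice. It was 4.55, 4.29, 5.38 and 3.88 in the double-deficient mice and 4.41, 5.03, 3.31 and 4.84 in the Sting-ko mice. The mice labelled with a 129 contribution were not higher, with a pooled change of -0.08 (SE 0.31, 95% interval -0.74 to 0.59, limma adjusted p = 1). Since C57BL/6 mice carry a single renin gene, the signal in the 8 mice with that label is not read here as Ren2 transcript. Whether the probe binds transcripts of Ren1 was not tested, since the probe sequence was not used here. In GRCm38.p6, Ren1 and Fcgr2b lie on the same chromosome, 1, with 600 annotated genes between them, of which 255 are protein-coding. Across the 16 mice the Ren1 and Ren2 probes correlated at r = 0.675 (permutation p = 0.00434, Benjamini-Hochberg adjusted 0.0231 over 16 pairs; rho = 0.65, permutation p = 0.00781, adjusted 0.0625). Without the 2 mice farthest from the Ren1 median, r was 0.908. Sting-ko replicate 4 stood apart, lowest of all mice on the Ren1 probe (-1.76) and in the upper part of the range on the Ren2 probe (4.84).

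**Figure D2:**
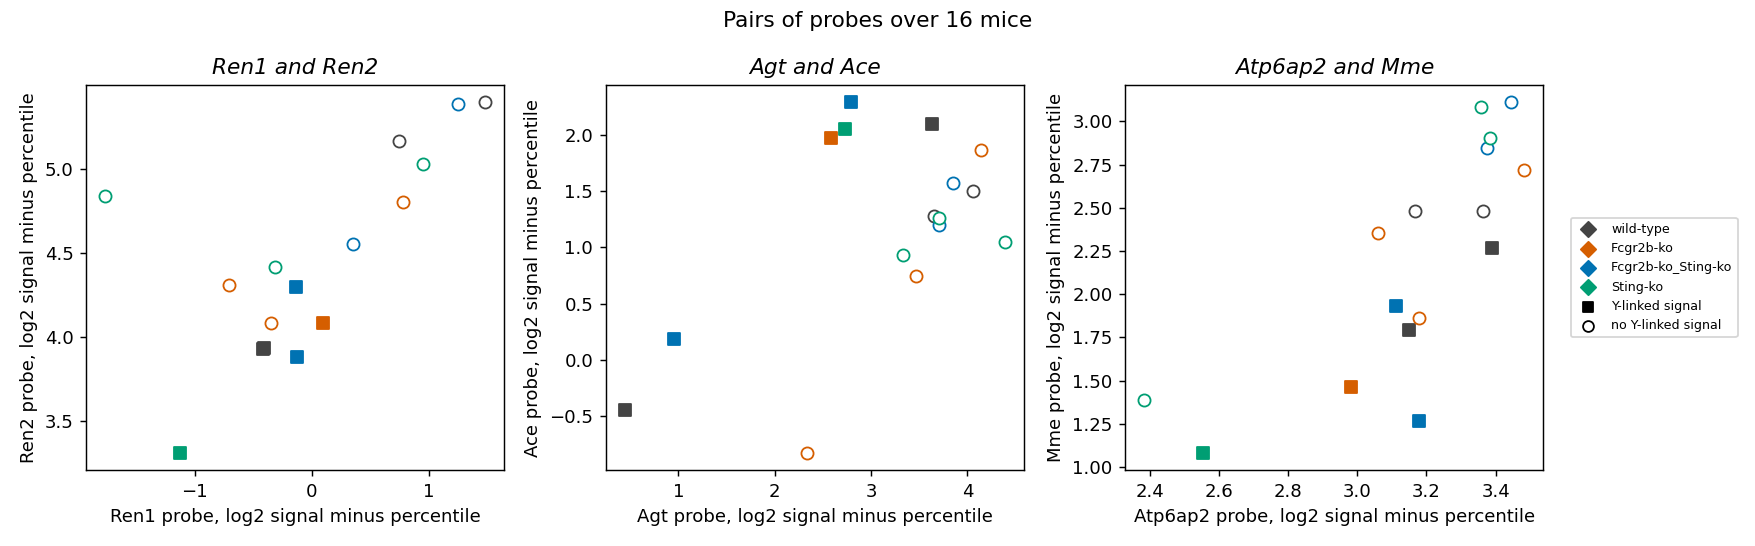
Each panel plots 1 probe against another over 16 mice (both axes, log2 signal minus the array's 75th percentile), with color for the genotype, squares for mice with Y-linked signal and circles for mice without. The Ren1 and Ren2 probes rise together (r = 0.675) with Sting-ko replicate 4 apart. Agt and Ace rise together within the squares (r = 0.952) and within the circles (r = 0.874). Atp6ap2 and Mme rise together over all mice (r = 0.775).

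Agt, the renin substrate, which the proximal tubule makes within the kidney, was the most variable member (probe A_51_P323712, NM_007428). The log2 signal was 0.44, 3.63, 4.06 and 3.65 in the wild-type mice and 2.33, 4.14, 2.58 and 3.47 in the Fcgr2b-ko mice. It was 3.85, 0.95, 3.71 and 2.79 in the double-deficient mice and 3.33, 3.71, 2.73 and 4.39 in the Sting-ko mice. Most of its spread came from wild-type replicate 1 and double-deficient replicate 2, which were far below every other mouse. Its SD within genotype was 1.20, and 93.3% of the probes tested had a smaller one. The order of the means was Sting-ko (3.54 ± 0.70, n = 4), Fcgr2b-ko (3.13 ± 0.83), wild-type (2.95 ± 1.68) and double-deficient (2.83 ± 1.33), again with no neighbours that differed beyond their spread. The pooled change was -0.27 (SE 0.55, 95% interval -1.43 to 0.90, limma adjusted p = 1), and without double-deficient replicate 2 it was 0.05. Sting-ko minus wild-type was 0.59 (SE 0.77, limma adjusted p = 0.799), and without wild-type replicate 1 it was -0.24. Within slides the pooled difference was 0.67 on slide 1 and -1.20 on slide 2, with 4 mice a side.

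Ace, which cleaves the product of renin and is abundant on endothelium and the proximal tubule brush border, was measured by probe A_52_P68028 (NM_009598). The log2 signal was -0.45, 2.10, 1.51 and 1.28 in the wild-type mice and -0.83, 1.86, 1.97 and 0.75 in the Fcgr2b-ko mice. It was 1.57, 0.18, 1.20 and 2.29 in the double-deficient mice and 0.94, 1.26, 2.06 and 1.04 in the Sting-ko mice. The 3 lowest mice came from 3 genotypes and were wild-type replicate 1, Fcgr2b-ko replicate 1 and double-deficient replicate 2. The genotype means lay between 0.94 ± 1.30 in Fcgr2b-ko and 1.33 ± 0.51 in Sting-ko (n = 4 each), with 1.11 ± 1.09 in wild-type and 1.31 ± 0.88 in double-deficient mice. The pooled change was -0.09 (SE 0.45, 95% interval -1.06 to 0.88, limma adjusted p = 1), and without Fcgr2b-ko replicate 1 it was 0.20. The same 3 mice had the lowest mean levels of both collecting duct marker lists. The intercalated cell list (Atp6v1b1, Slc4a1, Slc26a4 and Foxi1) was at 0.90, 0.75 and 1.17 in them and between 1.499 and 3.281 in the other 13 mice, and the principal cell list (Aqp2, Aqp3 and Avpr2) was at 2.09, 2.01 and 2.16 against 2.80 to 4.09. The mean of the endothelial list (Pecam1, Kdr, Cdh5 and Emcn) was 2.85, 2.38 and 1.99 in these mice and between 0.22 and 2.74 in the others, and that of the fat list was 2.32, 2.63 and -4.39 against -3.19 to 1.25. The mean of the leukocyte list was 1.271, 2.002 and 1.442 against -0.17 to 1.43. The proximal tubule S1 and S2 list was at 6.67 and 6.76 in wild-type replicate 1 and double-deficient replicate 2, inside the 6.00 to 7.44 of the other 13 mice, and at 5.01 in Fcgr2b-ko replicate 1, below them. All genes of the collecting duct, endothelial and proximal tubule lists were well above background on every array. Over all 16 mice, Ace correlated with the proximal tubule S1 and S2 list at r = 0.776. With the intercalated and principal cell lists r was 0.712 and 0.601, and with the endothelial and leukocyte lists -0.699 and -0.778. For Agt, r with the principal and intercalated cell lists was 0.867 and 0.794, and with the proximal tubule S1 and S2 list 0.138. The part of these differences in the Ace and Agt values was not tested.

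Agtr1a, the main angiotensin II receptor of the mouse kidney, varied little (probe A_52_P645862, NM_177322). Its log2 signal was 2.66, 2.56, 2.41 and 2.41 in the wild-type mice and 2.54, 2.43, 2.76 and 2.22 in the Fcgr2b-ko mice. It was 2.56, 2.53, 2.56 and 2.62 in the double-deficient mice and 2.91, 2.54, 1.92 and 1.24 in the Sting-ko mice. The Sting-ko group held both the highest mouse of the 16, replicate 1, and the 2 lowest, replicates 3 and 4. The means were 2.57 ± 0.04 in double-deficient, 2.51 ± 0.12 in wild-type, 2.48 ± 0.23 in Fcgr2b-ko and 2.15 ± 0.73 in Sting-ko mice (SD, n = 4 each). The pooled change was 0.20 (SE 0.21, 95% interval -0.24 to 0.64, limma adjusted p = 1) and became -0.09 without Sting-ko replicates 3 and 4. Sting-ko minus wild-type was -0.36 (SE 0.29, 95% interval -0.98 to 0.27, limma adjusted p = 0.735) and became 0.22 without those replicates.

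Atp6ap2, the (pro)renin receptor, was the least variable member (probe A_51_P461724, NM_027439). Its log2 signal was 3.39, 3.15, 3.17 and 3.36 in the wild-type mice and 3.18, 3.48, 2.98 and 3.06 in the Fcgr2b-ko mice. It was 3.45, 3.11, 3.38 and 3.18 in the double-deficient mice and 3.36, 3.38, 2.55 and 2.38 in the Sting-ko mice. Apart from Sting-ko replicates 3 and 4, all mice lay within a narrow band. The SD within genotype was 0.30, and 10.9% of the probes tested had a smaller one. The means were 3.28 ± 0.16 in double-deficient, 3.27 ± 0.13 in wild-type, 3.18 ± 0.22 in Fcgr2b-ko and 2.92 ± 0.53 in Sting-ko mice (n = 4 each). The pooled change was 0.13 (SE 0.18, 95% interval -0.24 to 0.51, limma adjusted p = 1), and -0.09 without Sting-ko replicates 3 and 4. Sting-ko minus wild-type was -0.35 (SE 0.25, 95% interval -0.88 to 0.18, limma adjusted p = 0.732), and 0.10 without them.

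Mme, whose product neprilysin removes angiotensin and natriuretic peptides, was measured by probes A_65_P20281 and A_66_P113268 of the same transcript (NM_001289462). On the brighter, A_65_P20281, the log2 signal was 2.26, 1.79, 2.48 and 2.48 in the wild-type mice and 1.86, 2.72, 1.47 and 2.35 in the Fcgr2b-ko mice. It was 3.11, 1.93, 2.84 and 1.26 in the double-deficient mice and 3.08, 2.90, 1.08 and 1.39 in the Sting-ko mice. Each group held mice above and below the median of all 16 (2.31). The means differed little beside this spread, with 2.29 ± 0.85 in double-deficient, 2.26 ± 0.33 in wild-type, 2.11 ± 1.02 in Sting-ko and 2.10 ± 0.55 in Fcgr2b-ko mice (n = 4 each). The pooled change was 0.01 (SE 0.35, 95% interval -0.73 to 0.75, limma adjusted p = 1) on the brighter probe and 0.03 (SE 0.34) on the other. Sting-ko minus wild-type was -0.14 (SE 0.49, limma adjusted p = 0.928) and became 0.74 without Sting-ko replicates 3 and 4.

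**Figure D3:**
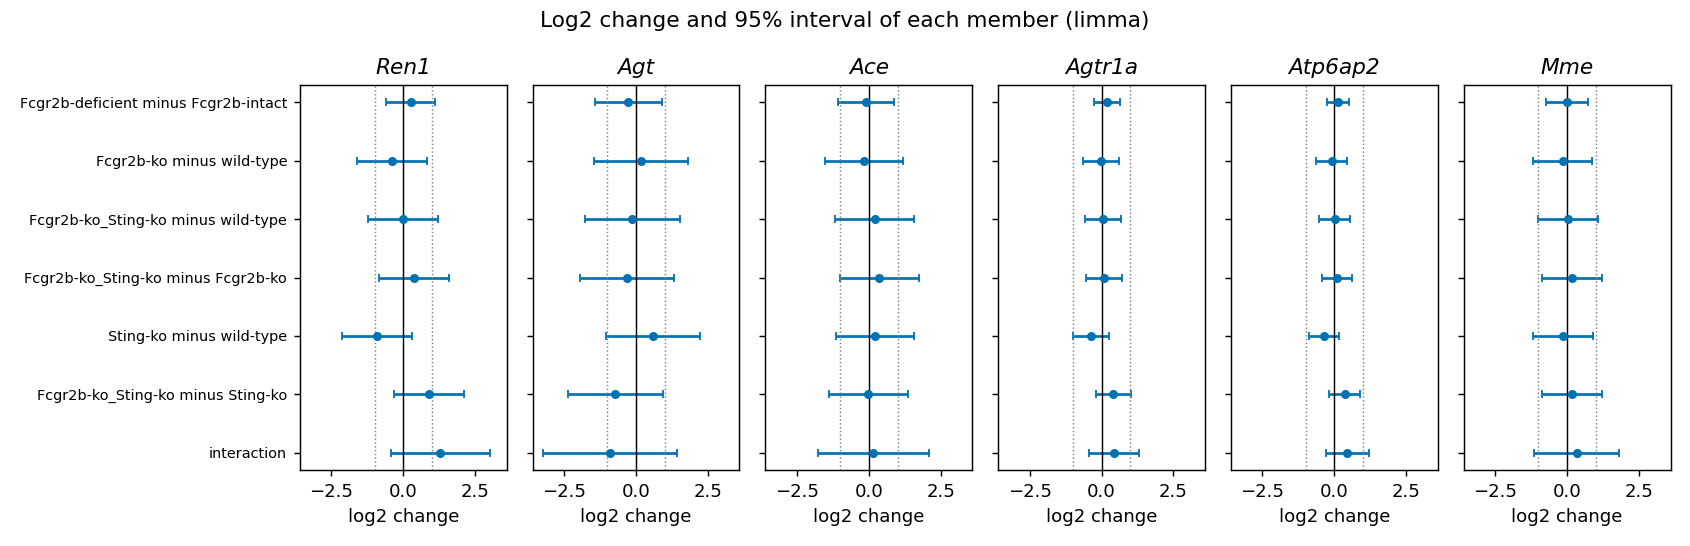
Log2 change (x axis) of each member in the 7 comparisons (y axis), with 95% intervals from limma; dotted lines mark 2-fold. Every interval includes 0, and those of Atp6ap2 stay within 2-fold in all comparisons but the interaction.

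The intervals bound the changes that 16 mice could show. In the pooled comparison a 2-fold change lay outside the 95% interval for Agtr1a, Atp6ap2 and Mme, and inside it for Ren1, Agt and Ace. The interaction of the genotypes, which asks whether the effect of Sting deficiency depended on Fcgr2b, was largest for Ren1 at 1.29 (SE 0.81, 95% interval -0.43 to 3.01, limma adjusted p = 0.661). With the slide as a block, the pooled and the Sting-ko minus wild-type changes of all 6 members were equal to those given above. The layout fixes this, since both sides of each had the same number of mice on each slide. The equality therefore says nothing about an effect of the slide. In Fcgr2b-ko against wild-type, which the slides did not balance, the median change of the members was -0.142 with the block and -0.124 without.

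Sting-ko replicates 3 and 4, on which several of these values rest, were both on slide 2. Replicate 4 was, with Fcgr2b-ko replicate 1, the array least like the others, with a median correlation to the other arrays of 0.923 against 0.914 for that array and 0.94 to 0.973 for the rest. Its leukocyte list (which includes Ptprc, Cd3e, Cd68 and Itgam) had a summed log2 level of 7.81, against 4.47 to 5.98 in the other mice, and 4 of its 5 genes were well above background on every array. This sum was mostly Itgam (7.78), while Ptprc (-0.53) and Cd68 (0.06) were within the range of the other mice. Replicate 4 also had a Fcgr2b signal of -0.19 on the brighter probe, within the range of the deficient groups (-0.404 to 0.701). The other Sting-ko and all wild-type mice lay between 0.703, in Sting-ko replicate 3, and 2.13. On a dimmer Fcgr2b probe, Sting-ko replicates 3 (-1.01) and 4 (-1.43) both lay within the range of the deficient groups (-1.82 to -0.58). The other Sting-ko and all wild-type mice lay between -0.53 and 0.50 on it. The pooled change of Fcgr2b was -1.14 on the brighter probe (SE 0.25, limma adjusted p = 0.293). It was -0.90 on the dimmer probe (SE 0.22, limma adjusted p = 0.609), and neither was called. Sting1, whose point mutation need not lower the transcript, had a Sting-ko minus wild-type change of 0.52 (SE 0.66, limma adjusted p = 0.794). The defining markers of the proximal tubule S1 and S2 segments (Slc5a2, Slc34a1 and Lrp2) and of renin cells (Akr1b7, Gja5 and Rgs5) were well above background on all arrays. Of the 6 adrenal markers, Hsd3b1 was well above background on 16 arrays, Star on 10, Mc2r on 4 by its brighter probe and Cyp11a1 on 1, and Cyp11b1 and Cyp11b2 on none.

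Across the 16 mice, some members correlated with each other. The permutations treated all mice as exchangeable, over genotypes, slides and shared numbers in the mouse labels. How many pairs of other genes reach such an r was not computed, so the p-values do not set these members apart. Among 15 pairs of members and the pair of renin probes, Atp6ap2 and Mme had the firmest relation, with r = 0.775 (permutation p = 7e-05, Benjamini-Hochberg adjusted 0.00112; rho = 0.726, permutation p = 0.00234, adjusted 0.0374). Without the 2 mice farthest from the Atp6ap2 median, Sting-ko replicates 3 and 4, r was 0.75, and within the slides it was 0.694 and 0.738. Agtr1a and Atp6ap2 also correlated (r = 0.799, permutation p = 0.00185, adjusted 0.0148; rho = 0.421, permutation p = 0.106, adjusted 0.373), but without the same 2 mice r was 0.0882, so that this relation rested on them. Ren1 correlated with Atp6ap2 at r = 0.637 (permutation p = 0.00727, adjusted 0.0291; rho = 0.362, adjusted 0.386), with -0.0404 on slide 1 and 0.944 on slide 2, and with Mme at r = 0.602 (permutation p = 0.0141, adjusted 0.0451; rho = 0.571, adjusted 0.122). Without Sting-ko replicates 3 and 4 these r were 0.143 and 0.402.

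The mice fell into 2 separate sets by Y-linked transcripts. Ddx3y, Uty, Kdm5d and Eif2s3y were all well above background in 6 mice (2 wild-type, 1 Fcgr2b-ko, 2 double-deficient and 1 Sting-ko) and none of them in the other 10. The summed log2 level of the kidney genes listed as higher in males (Slco1a1, Cyp4a12a and Cyp7b1) separated the same sets, with 6.10 or more in the 6 mice and 1.02 or less in the other 10. Sets of both kinds occurred in each genotype, and the members were therefore also read with the mean Y-linked signal as a covariate beside the genotypes. No member passed an adjusted p under 0.05 for this covariate, which 5.2% of all probes did. Agt ran from 0.44 to 3.63 with a median of 2.65 in the 6 mice, and from 2.33 to 4.39 with a median of 3.71 in the other 10 (coefficient -0.24 per log2 unit of Y-linked signal, SE 0.07, limma adjusted p = 0.069). Mme ran from 1.08 to 2.26 with a median of 1.63 in the 6, and from 1.39 to 3.11 with a median of 2.60 in the 10 (coefficient -0.15, SE 0.04, limma adjusted p = 0.0656). Ren1 had medians of -0.27 and 0.55 (coefficient -0.14, SE 0.06, limma adjusted p = 0.228). Ace, Agtr1a and Atp6ap2 had coefficients of 0.03, 0.01 and -0.04, with limma adjusted p of 0.937, 0.978 and 0.658.

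The Ren2 probe was lower in the mice with Y-linked signal, where it ran from 3.31 to 4.29 with a median of 3.93, than in the other 10, where it ran from 4.09 to 5.39 with a median of 4.82 (coefficient -0.16, SE 0.03, limma adjusted p = 0.00801). Within the sets the r of Agt and Ace was higher than over all mice, and the difference was not tested. It was 0.564 over the 16 mice (permutation p = 0.023, adjusted 0.0613; rho = 0.282, permutation p = 0.289, adjusted 0.566), 0.952 in the 6 mice with Y-linked signal and 0.874 in the other 10. The low ends of these relations were wild-type replicate 1 and double-deficient replicate 2 in the first set and Fcgr2b-ko replicate 1 in the other. Over all mice, r was 0.174 without wild-type replicate 1 and double-deficient replicate 2, the mice farthest from the Agt median, and on the slides it was 0.814 and 0.24.

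Among 16399 named genes, those whose pattern over the 16 mice was most like each member were as follows, by Pearson's r and as a description. For Ren1 they were Cyp2d22 (r = 0.911), Utp15 (0.88) and Id3 (0.868), and for Agt they were Slc22a13 (0.976), Gas6 (0.974) and Tjp3 (0.967). For Ace they were Rnf10 (0.98), Sdr39u1 (0.976) and Pla2g6 (0.974), and for Agtr1a they were Coil (0.953), Ctnnb1 (0.92) and Rbsn (0.917). The patterns of Agt and Ace thus had closer matches than that of Ren1. For Atp6ap2 they were Ttc30b (0.952), Ttc30a2 (0.935) and Ube2e3 (0.929), and for Mme they were Cldn8 (0.938), Spc25 (0.924) and Gm11837 (0.919). The points share arrays, and the mice that stand apart on an array weigh on every gene.

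Around the members, 91 genes in 6 lists covered the rest of the pathway, of which 90 had a probe and 83 were tested. None of the 83 was called in any of the 7 comparisons. In the pooled comparison 39 were higher and 44 lower, with 48% of all probes higher (median change -0.01, equal to the median of -0.01 over all probes), and 2 had an unadjusted p under 0.05, against 1.66% of probes. In Fcgr2b-ko against wild-type 27 were higher and 56 lower, with 43.4% of all probes higher (median -0.18, against -0.06 over all probes), and 6 had an unadjusted p under 0.05, against 3.35% of probes. In Sting-ko against wild-type 39 were higher and 44 lower, with 50.1% of all probes higher (median -0.03), and 5 had an unadjusted p under 0.05, against 3.76% of probes. The last 2 comparisons share the wild-type mice.

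**Figure D4:**
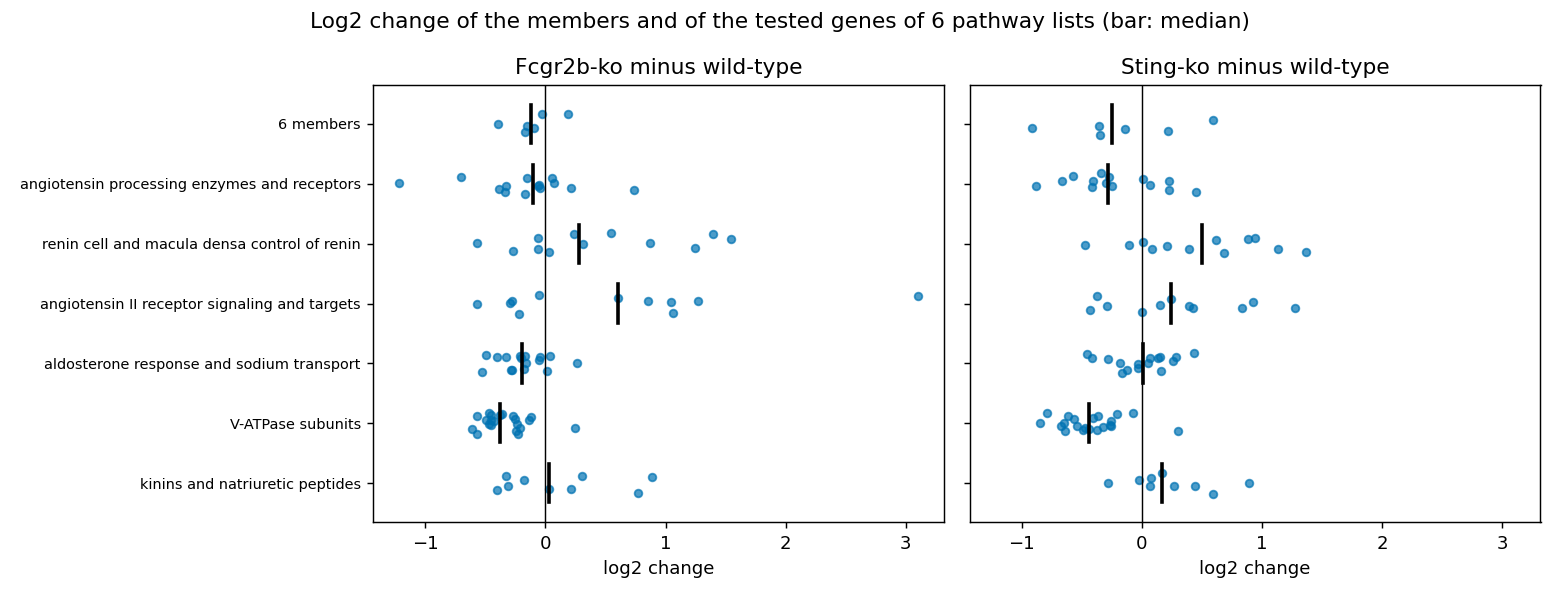
Log2 change (x axis) of the 6 members and of the tested genes of each pathway list (y axis; 1 point a gene, bar for the median) in Fcgr2b-ko and in Sting-ko against the same wild-type mice. V-ATPase subunits lie mostly below 0 in both panels (medians -0.38 and -0.44).

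Of the enzymes and receptors that process or bind angiotensins, 14 of 19 were tested, and 4 were higher and 10 lower in Fcgr2b-ko than in wild-type mice. Of all probes, 43.4% were higher. Enpep, an aminopeptidase that degrades angiotensin II, differed by -0.88 between Sting-ko and wild-type mice (SE 0.34, limma adjusted p = 0.732), and its lowest mice were Sting-ko replicates 4 (-0.01) and 3 (1.03). A dimmer Enpep probe disagreed in direction (0.23, SE 0.44). Mas1, a receptor for a shorter angiotensin fragment, had a pooled change of -0.40 (SE 0.59, limma adjusted p = 1). It did not overlap between the sets of mice by Y-linked signal, with -1.47 to 0.04 in the 6 mice and -4.23 to -2.35 in the other 10 (coefficient 0.34, SE 0.05, limma adjusted p = 0.000684). Besides Mas1, 4 of the 83 pathway genes passed for this covariate, so that 6.02% of the list stood against the 5.2% of all probes. Cul3, a ubiquitin ligase scaffold that controls sodium transport, was higher in the 6 mice, and Adrb1, Bdkrb2 and Corin were lower. Like Mas1, the pathway genes Cul3 and Adrb1 did not overlap between the sets on their brightest probes. Nln did not overlap on its brightest probe either, but did not pass for the covariate (limma adjusted p = 0.18). On 1 of its dimmer probes the sets overlapped, with -0.16 in Sting-ko replicate 3 and 0.12 in double-deficient replicate 1. On the other dimmer probe they did not. The share of all probes without overlap between these sets was not computed, so these genes are given as a description only.

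The list of renin cell and macula densa genes that control renin had 12 tested genes. In Fcgr2b-ko against wild-type 8 were higher and 4 lower, and in Sting-ko against wild-type 10 were higher and 2 lower (medians 0.28 and 0.50). Of all probes, 43.4% and 50.1% were higher (medians -0.06 and 0.0015). When arrays were scaled by their median, 7 of 12 were higher in Sting-ko against wild-type. The median of the list was then 0.26 and that of all probes -0.24. Ptger4, a prostaglandin E receptor that stimulates renin release, had the largest pooled change of the list (0.59, SE 0.51, limma adjusted p = 1). Its change in Fcgr2b-ko against wild-type was 1.55 (SE 0.72, limma adjusted p = 1), with 3.29 and 1.49 in replicates 1 and 4. Without replicate 1, which was the array least like the others, it was 0.78. These 2 mice also had the highest levels of the leukocyte marker Ptprc (3.56 and 2.55, against at most 1.70 in the others). So they did of Cd68 (2.76 and 3.40, against at most 0.999). The whole leukocyte list did not set both mice apart. Its mean was 2.002 and 1.431 in them, and 1.442 in double-deficient replicate 2. Its summed log2 level was 5.98 and 5.33, against 7.81 in Sting-ko replicate 4, where it was mostly Itgam. The part of leukocyte RNA in the change was not tested. Gja5, the gap junction protein of renin cells, differed by 1.25 in the same comparison (SE 0.57, limma adjusted p = 1), and by 0.28 (SE 0.22) on a probe of another transcript. Without Fcgr2b-ko replicate 1 the former was 0.74.

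Of the genes of angiotensin II receptor signaling and its targets, 11 were tested, and 6 were higher and 5 lower in Fcgr2b-ko than in wild-type mice, where 43.4% of all probes were higher. Tgfb1, a fibrogenic cytokine that angiotensin II induces, differed by 1.27 in this comparison (SE 0.42, limma adjusted p = 1), with -0.17 and -0.14 in Fcgr2b-ko replicates 1 and 4 and -2.66 to -0.81 in the other 14 mice. These were the mice with the highest Ptprc and Cd68 given above, and the mean of the whole leukocyte list was 2.002 and 1.431 in them and between -0.17 and 1.44 in the others. The part of leukocyte RNA in the Tgfb1 values was not tested.

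The aldosterone response and sodium transport list had 16 tested genes, and 12 were lower and 4 higher in the Fcgr2b-deficient mice (median -0.15). Of all probes, 48% were higher in this comparison (median -0.01). Kcnj1, the apical potassium channel of the thick limb and collecting duct, had the largest pooled change of the list (-0.41, SE 0.19, limma adjusted p = 1). Of the kinin and natriuretic peptide list, 9 genes were tested, and Corin, the protease that activates atrial natriuretic peptide, had a pooled change of -0.63 (SE 0.31, limma adjusted p = 1).

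V-ATPase subunits, the pump to which Atp6ap2 belongs, were lower by small amounts in most cases without passing the test. Of 21 tested, 20 were lower and 1 higher in Fcgr2b-ko than in wild-type mice (median -0.38, range -0.61 to 0.24). In Sting-ko against the same wild-type mice 20 were lower and 1 higher (median -0.44, range -0.85 to 0.30). Of all probes, 43.4% and 50.1% were higher in these comparisons (medians -0.06 and 0.0015). None of the 21 was called, and 0 and 3 had an unadjusted limma p under 0.05, against 3.35% and 3.76% of all probes. In the table the authors deposited and under quantile normalization 19 of 21 were lower in both comparisons, and 20 were after normexp correction or scaling by the array median, which shifted the median of all probes to -0.21 and -0.24. Without the 2 arrays least like the others, 14 of 21 were lower in Fcgr2b-ko (median -0.17) and 20 in Sting-ko (median -0.35). In the double-deficient mice 18 of 21 were lower than in wild-type (median -0.10, with 50.6% of all probes higher), and in the pooled comparison 11 were higher and 10 lower. Atp6v1e1, a subunit of the catalytic part, had the largest change, -0.85 in Sting-ko against wild-type (SE 0.37, limma adjusted p = 0.732), and Atp6v0d2, a subunit of the membrane part, the largest pooled change (-0.33, SE 0.28, limma adjusted p = 1).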

How the data were processed

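RNA of 16 whole kidneys, 1 mouse per array, was labelled with Cy3 (100 ng) and the arrays were read with Agilent Feature Extraction 11.0 (per the labels). The intensity values deposited by the authors were background-subtracted and detrended spot signals, not normalized between arrays. A second deposited table held log2 values of the same 16 arrays, whose normalization is not given in the sources used here, and served as an alternative.

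Spots of 1 probe were averaged, and log2 signals were taken relative to the 75th percentile of each array. The 35628 probes that the software marked as well above background on 4 or more of the 16 arrays were fitted in limma 3.58.1 (R 4.3.3) with 1 mean per genotype, and p-values were adjusted by Benjamini-Hochberg over all of them. The labels give 1 mouse per sample. In the mouse labels, 3 leading numbers were each shared by 2 mice, among them wild-type replicates 3 and 4. The main fit treated all mice as independent. With the leading number as a random block, the estimated correlation of mice with the same number was 0.827. The number of arrays limits the precision. For genes with several probes the brightest stands for the gene. Correlations over mice used 100000 permutations, two-sided (scipy 1.17.1). Mice were permuted freely, without regard to genotype, slide or leading number. The script was tested on simulated data. The slides were read from the array files.

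Alternatives were normexp correction (offset 50), quantile and median scaling, the authors' table, other filters, blocks and samples, and the Mann-Whitney test of the study's methods, two-sided. The members, lists and comparisons were chosen with earlier results of these data known. Named were the members, up to 3 genes per list by pooled change, the genes most like each member, defining markers, Fcgr2b, Sting1 and Ren2. Tgfb1, Cul3, Adrb1, Bdkrb2, Nln and Atp6v1e1, and the reading by Y-linked signal, were chosen after their values were seen. Some genes that the rule would name are not reported here.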

Additional observations from a re-analysis of the deposited data

Results flagged for a closer look

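Agt in wild-type replicate 1 had a log2 signal of 0.4447, far from the other 3 wild-type mice (3.63 to 4.06). The gap to the nearest of them was 0.884 of the range of the group, above Dixon's critical value for 4 samples. It was the only such mouse among 28 sets of 4 examined, where chance gives about 1 in 20. The same mouse was among the 6 with Y-linked signal and among the 3 lowest for Ace and for the collecting duct lists. The part of these in its Agt value was not tested.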

How the results depend on the processing

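No member was called under any alternative in any comparison, and no pathway gene was called except with the unadjusted Mann-Whitney test at 2-fold or more (1 in Fcgr2b-ko and 2 in Sting-ko against wild-type). The adjusted form of this test could hardly call any probe with 4 mice a side, as given below. Directions of members near 0 turned. Scaling by the array median gave -0.0256 for Ace in Sting-ko against wild-type and -0.007056 for Mme in the pooled comparison, and the Y-linked covariate gave -0.001889 for the latter. Without the 2 arrays least like the others (chosen after seeing the data) the pooled changes were 0.1576 for Ace, 0.009726 for Agt and -0.07263 for Mme, and that of Mme in Sting-ko against wild-type was 0.09942. Without Sting-ko replicates 3 and 4 (also chosen after seeing the data) the pooled changes were 0.02293 for Ace, -0.09032 for Agtr1a, -0.09174 for Atp6ap2, -0.4302 for Mme and -0.1871 for Ren1, and those in Sting-ko against wild-type were -0.009749 for Ace, 0.2154 for Agtr1a, 0.1018 for Atp6ap2 and 0.7354 for Mme. Leaving out 1 mouse at a time, the pooled change ran from -0.3496 to 0.2043 for Ace, -0.6822 to 0.04681 for Agt, -0.1631 to 0.1791 for Mme and -0.259 to 0.05326 for Ren2. The change in Sting-ko against wild-type ran from -0.3012 to 0.5461 for Ace, -0.2417 to 0.9619 for Agt and -0.4645 to 0.2012 for Mme. The Y-linked coefficient of Agtr1a was -0.02105 with normexp and -0.002939 in the authors' table, and it ran from -0.005594 to 0.02076, and that of Ace from -0.009587 to 0.1024, without 1 mouse. The coefficient of Agt passed an adjusted p of 0.05 under 6 of 26 alternatives (limma adjusted p 0.0136 to 0.218) and that of Mme under 4 of 26, while those of Ren2 and Mas1 passed under all. The causes were not tested.

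Over all probes, the 24 calls of the pooled comparison were 13 with normexp, 6 with probes well above background on all arrays and 8 with the leading number in each mouse's label as a random block. The 18 calls in Fcgr2b-ko against wild-type were 5, 0 and 3 under the same settings, 7 in the authors' table, 8 with the Y-linked covariate and 0 with only the compared groups. Leaving out 1 mouse, they ran from 0 (without wild-type replicate 2, 3 or 4, or Fcgr2b-ko replicate 4) to 37 (without Fcgr2b-ko replicate 2), with 3 without Fcgr2b-ko replicate 1 and 5 without Sting-ko replicate 2 or any 1 double-deficient mouse, and 1 without the 2 arrays least like the others. The pooled calls ran from 20 to 30 without 1 mouse and were 8 without Sting-ko replicates 3 and 4. The Mann-Whitney test made 211 and 144 calls unadjusted and 0 after adjustment. With the replicate number as a block there were 22 and 16 calls and 0 members were called; the numbers do not pair the mice, since 5 of 16 arrays were closest to an array of their own number.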
